A study of Mus musculus and Homo sapiens with 12 samples.

Results

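The 9 genes followed here serve cytosolic protein quality control: the small heat shock proteins HSPB8 and HSPB1, the alpha-crystallins CRYAA and CRYAB, the co-chaperone BAG3, the HSP70 proteins HSPA1A and HSPA8, the HSP70 activator DNAJB1, and HSP90AA1. They were read by mouse symbol in the table of the mouse mammary carcinoma cells EMT6 and by Ensembl identifier in the table of the human breast cancer cells MDA-MB-231, which gives 18 rows out of 114564. The 9 genes were picked with knockout differences of these same libraries already known, among them the low Cryaa of the EMT6 knockout, so their differences are given as a description with standard errors and no p-value. In each line, cells with PFKFB4 knocked out were set against wild-type cells, with 3 libraries per group and 12 in all. PFKFB4 is a bifunctional enzyme that makes and degrades a sugar bisphosphate regulating glycolysis. All cells were kept in DMEM rich in glucose, with serum and antibiotics, and the labels name no other treatment. The labels call the libraries biological replicates. The labels do not state how the gene was deleted, whether each knockout is a single clone, or whether the libraries came from separate cultures, so errors measure the spread between these libraries.

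Small heat shock proteins, which include the alpha-crystallins, bind unfolding proteins without using ATP and keep them from aggregating. HSP70 proteins refold or hand on such clients with the help of J-domain proteins such as DNAJB1, nucleotide exchange factors such as the BAG proteins, and HSP90. HSPB8 forms a complex with BAG3 that passes damaged clients, with HSP70 and a ubiquitin ligase, to autophagy. Many of these genes are induced by the transcription factor HSF1, which binds inverted repeats of the letters GAA, whereas CRYAA is best known as an abundant protein of the eye lens.

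Sequence before the gene start was looked at in mouse because several of these genes are classical heat shock targets. RefSeq (GRCm38.p6) gave an entry for 6 of the 9 mouse genes: Hspb8, Hspb1, Bag3, Dnajb1, Cryaa and Hspa1a. The 250 bases before each start were searched for adjoining inverted repeats in either arrangement, GAANNTTC or TTCNNGAA. Each reads the same on both strands, and matches of the 2 arrangements may overlap. At least 1 match occurs in 12.8% of all 32851 entries of this length and at least 2 in 1.46%. Hspb1 held 2 matches, starting 117 and 97 bases before its start, and Hspa1a held 1, starting 104 bases before. Hspb8, Bag3, Dnajb1 and Cryaa held none, which says only that these letters are absent from that window.
Hspb1 is shown for its matches (capitals), at chr5:135887769-135887858, plus strand, and Cryaa as the gene with the largest difference in EMT6, at chr17:31677681-31677806, plus strand, where the stretch stops at the annotated gene. Hspa1a, at chr17:34972247-34972371, and its neighbour copy Hspa1b, at chr17:34959329-34959453, both on the minus strand, are shown with the bases that differ between them in capitals.
Hspb1: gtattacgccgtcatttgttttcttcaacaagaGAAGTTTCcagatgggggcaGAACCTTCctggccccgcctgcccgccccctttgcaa
Cryaa: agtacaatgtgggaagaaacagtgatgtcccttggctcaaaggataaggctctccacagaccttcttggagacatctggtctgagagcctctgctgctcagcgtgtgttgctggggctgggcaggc
Hspa1a: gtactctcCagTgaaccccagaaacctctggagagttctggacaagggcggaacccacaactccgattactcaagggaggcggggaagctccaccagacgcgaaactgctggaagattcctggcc
Hspa1b: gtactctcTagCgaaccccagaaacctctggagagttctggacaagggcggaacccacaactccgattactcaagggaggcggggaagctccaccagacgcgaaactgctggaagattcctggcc
Over all 250 bases the regions before Hspa1a and Hspa1b differ at 3 positions, of which the stretch shown holds all but the one nearest the start, and both hold the same match.

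Values are TPM, the authors' measure of transcript abundance per length, scaled to the same sum in every library. Read depth is unknown, since TPM does not keep it. Genes at 1 TPM or more numbered 11871 to 12015 in EMT6 knockout libraries and 12350 to 12426 in EMT6 wild type, and 13038 to 13338 in MDA-MB-231 knockout libraries and 13423 to 13593 in its wild type. The targeted mouse transcript Pfkfb4 was at 6.96, 6.87 and 8.24 TPM in EMT6 knockout libraries, against 10.2, 10.5 and 10.4 TPM in wild type, so it was lower but present. Its difference was -0.45 ± 0.08 (SE), past the limma threshold described below, and -0.23 and not past it under median-ratio scaling. The position of the deletion within the gene is not given in the labels, so these values do not check it. The human targeted transcript was not analysed here. Of 5 epithelial markers in EMT6, 3 had a knockout mean and 2 a wild-type mean under 1 TPM, Epcam and Cdh1 among them. Krt8 made up most of the epithelial sum, which was 538 to 564 TPM in knockout libraries and 495 to 546 TPM in wild type. Krt18 and Krt19 went the other way: Krt18 averaged 15.5 TPM in knockout libraries and 36.3 TPM in wild type, and Krt19 averaged 0.0177 TPM in knockout libraries and 1.95 TPM in wild type. The summed level of 4 leukocyte markers was 58.4 to 64.1 TPM in knockout libraries and 24.8 to 28.9 TPM in wild type, nearly all of it Cd68, with Ptprc at or near 0. The part of these marker differences in the chaperone values was not tested, and in bulk RNA fewer expressing cells and less RNA per cell cannot be told apart.

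The 9 genes together held 0.48 to 0.522% of all TPM in EMT6 knockout libraries and 0.494 to 0.512% in EMT6 wild type, and 0.264 to 0.296% in MDA-MB-231 knockout libraries and 0.276 to 0.311% in its wild type. HSPA8 and HSP90AA1 made up 80 to 93.4% of that sum in every library. In all 4 groups, each gene stood apart from the next in the order of levels, with no overlap between their libraries. The order in EMT6 knockout cells ran Hspa8, Hsp90aa1, Cryab, Hspb1, Hspb8, Bag3, Dnajb1, Cryaa and Hspa1a. EMT6 wild-type cells kept this order apart from Hsp90aa1, which stood above Hspa8. With its main pseudogene added, as given below, Hspa8 overlapped Hsp90aa1 in EMT6 wild type. In MDA-MB-231 the order in knockout cells ran HSPA8, HSP90AA1, HSPB1, DNAJB1, BAG3, HSPB8 and HSPA1A, and in wild-type cells HSPB8 stood last, below HSPA1A. CRYAA and CRYAB were listed at 0 in all 6 MDA-MB-231 libraries, as were 27380 of the 60233 human identifiers.

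**Figure D1:**
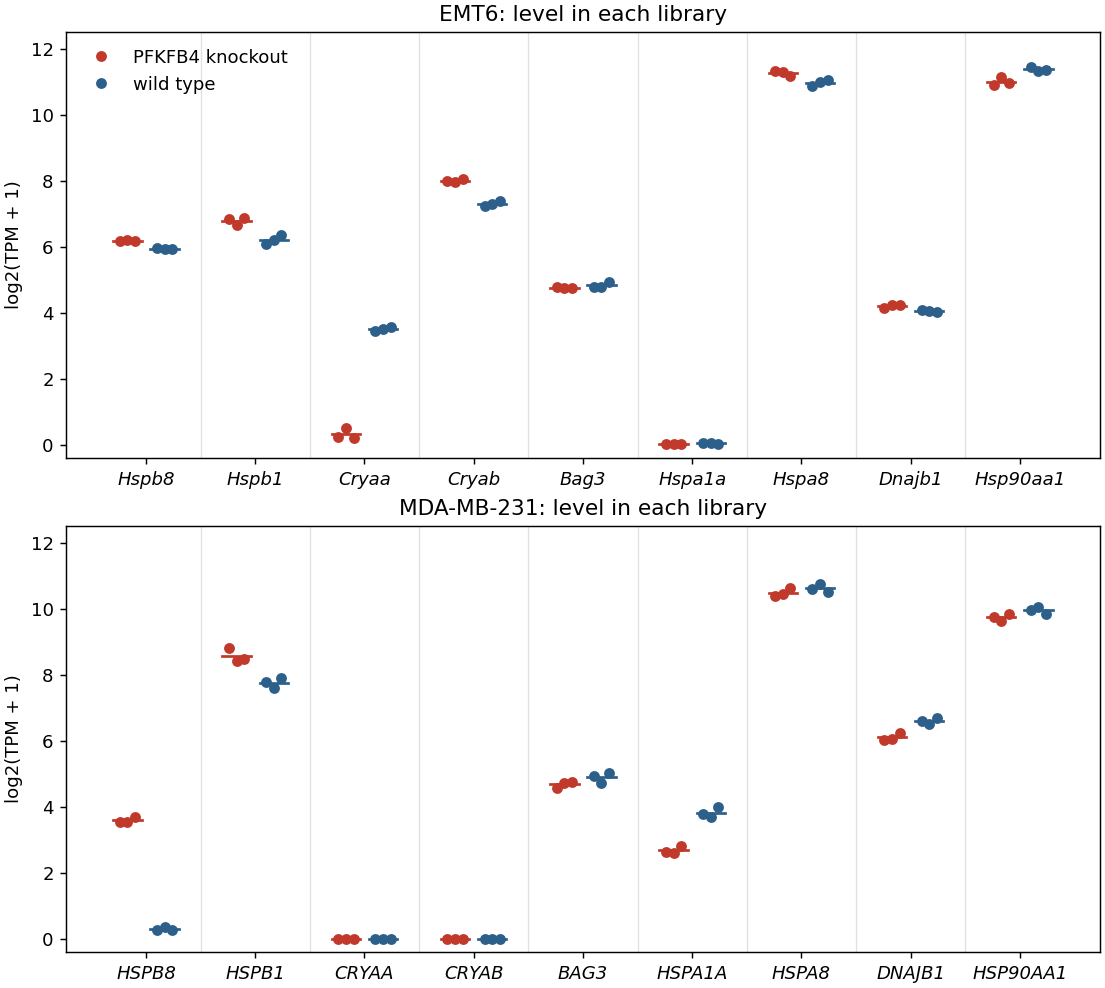
Level of each gene in each library, as log2(TPM + 1), for EMT6 (top) and MDA-MB-231 (bottom). Points are libraries, 3 per group, and bars are means of the log values. Cryaa in EMT6 and HSPB8 in MDA-MB-231 have the widest gaps between knockout and wild-type libraries.

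Differences were taken from a limma fit over all genes of a line on log2(TPM + 1), knockout minus wild type, with adjusted p under 0.05 as the threshold. This scale understates the change of low genes. In EMT6 the fit put 56.7% of 13499 tested genes past the threshold, 14.5% higher and 42.3% lower, and the median difference over all of them was -0.21. Of the 9 genes, 8 passed the filter of 0.5 TPM in 3 libraries. Hspb8, Hspb1, Cryab, Hspa8 and Dnajb1 were past the threshold on the higher side, Cryaa and Hsp90aa1 on the lower side, and Bag3 was not past it. In MDA-MB-231, 20% of 15299 tested genes were past the threshold, 7.97% higher and 12.1% lower, and the median difference was -0.04. There, 7 genes passed the filter. HSPB8 and HSPB1 were past the threshold on the higher side, HSPA1A and DNAJB1 on the lower side, and BAG3, HSPA8 and HSP90AA1 were not past it. Knockout and wild-type libraries did not overlap for 5 higher and 3 lower of the tested genes in EMT6, where that held for 66.2% of all tested genes (17.9% higher, 48.3% lower), and for 2 higher and 3 lower in MDA-MB-231, where it held for 40.1% (17.2% higher, 22.9% lower). Since the genes were chosen on this contrast, these counts are not read against the shares of all genes.

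In the EMT6 fit the direction of the average gene depends on the scaling. Rescaling by the median over genes of a library's ratio to the average of its line moves the median difference from -0.21 to -0.01, and gives 3584 genes higher and 3426 lower in place of 1954 and 5705. With the trend of the difference on exon length removed instead, 3124 genes were higher and 3589 lower, with a median of -0.04. Both steps centre each library, so a median near 0 follows from the method and does not show the direction of the average gene. Values under median-ratio scaling are given below for most of the genes named.

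**Figure D2:**
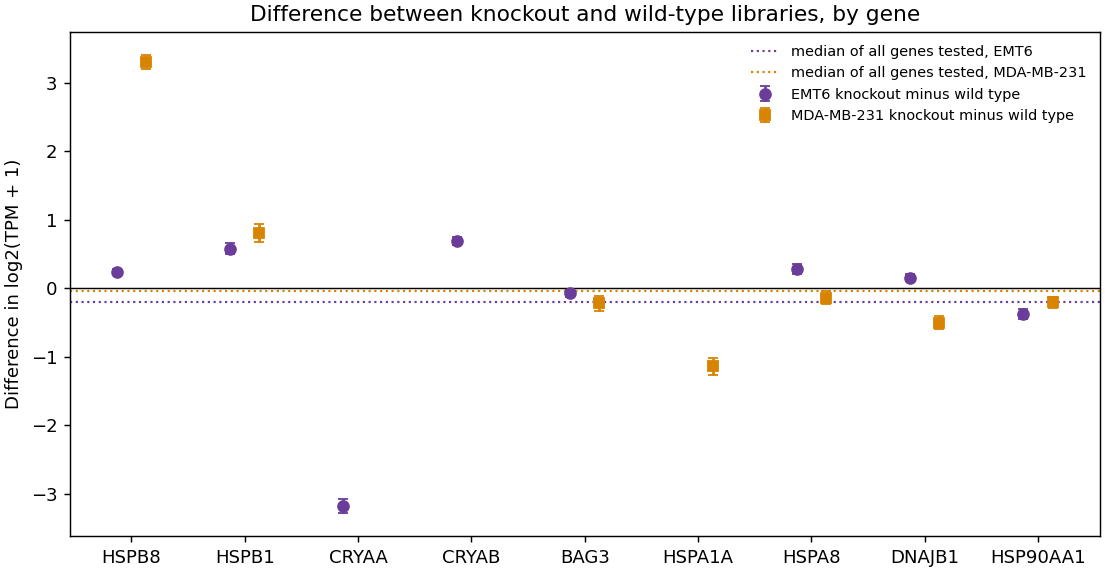
Difference in log2(TPM + 1), knockout minus wild type, for each gene with its standard error (3 knockout against 3 wild-type libraries), in EMT6 (circles) and MDA-MB-231 (squares). A missing point marks a gene that did not pass the filter in that line, and HSPB8 in MDA-MB-231 at 3.30 and Cryaa in EMT6 at -3.18 lie farthest from 0.

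HSPB8, the small heat shock protein that pairs with BAG3, was near the bottom of the scale in wild-type MDA-MB-231 cells and clearly present in the knockout. HSPB8 (ENSG00000152137) stood at 10.7, 10.7 and 11.9 TPM in knockout libraries, against 0.196, 0.278 and 0.202 TPM in wild type. All 3 knockout libraries lay far above all wild-type libraries, with means of 11.1 ± 0.695 and 0.225 ± 0.0455 TPM (SD, n = 3 each), a 49.3-fold higher level. The difference was 3.30 ± 0.10 (SE) on the log2(TPM + 1) scale and 5.11 with a pseudocount of 0.1. In EMT6, where the gene was already well expressed, Hspb8 (ENSMUSG00000041548, chromosome 5, 116408491 to 116422864, minus strand, GRCm38) stood at 71.2, 73.1 and 71.5 TPM in knockout libraries and 61.1, 60.3 and 60.2 TPM in wild type. The groups did not overlap, and the difference was 0.24 ± 0.03 (SE), or 0.48 under median-ratio scaling. The 2 tables were normalized separately, so the difference between the lines was not tested.

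HSPB1, a widely expressed small heat shock protein, was higher in the knockout of both lines. Hspb1 (ENSMUSG00000004951, chromosome 5, 135887919 to 135889563, plus strand) had 112.8, 100.5 and 116.8 TPM in EMT6 knockout libraries and 67.0, 72.8 and 80.2 TPM in wild type. HSPB1 (ENSG00000106211) had 446.8, 340.9 and 352.3 TPM in MDA-MB-231 knockout libraries and 218.9, 192.2 and 239.7 TPM in wild type. In neither line did the groups overlap. The differences were 0.58 ± 0.09 (SE) in EMT6, a 1.5-fold higher mean, and 0.80 ± 0.13 (SE) in MDA-MB-231, a 1.75-fold higher mean. Of the words of 50 nt in the annotated transcripts of Hspb1, 48.8% also occur in the processed pseudogene Hsp25-ps1. That pseudogene was listed at 3.91, 3.61 and 0 TPM in knockout libraries and at 0 in all wild-type libraries, and adding it to Hspb1 left the difference at 0.61.

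The alpha-crystallins differed in opposite directions in EMT6. Cryaa (ENSMUSG00000024041, chromosome 17, 31677807 to 31681733, plus strand), the lens crystallin, stood at 0.178, 0.425 and 0.161 TPM in knockout libraries, against 9.81, 10.3 and 10.9 TPM in wild type. All knockout libraries were below 0.5 TPM and all wild-type libraries above 9 TPM. The means were 0.254 ± 0.148 and 10.3 ± 0.538 TPM (SD, n = 3 each), a 40.6-fold lower level in the knockout. With 1 library left out the fold ran from 34.3 without knockout replicate 3 to 61.1 without knockout replicate 2, the highest of the 3. The difference was -3.18 ± 0.10 (SE), or -3.05 under median-ratio scaling and -4.95 with a pseudocount of 0.1. Cryab (ENSMUSG00000032060, chromosome 9, 50751325 to 50756636, plus strand), which is made in many tissues and is stress-inducible, stood at 252.4, 246.4 and 265.4 TPM in knockout libraries and 148.9, 157.1 and 167.0 TPM in wild type. The groups did not overlap, and the difference was 0.69 ± 0.06 (SE), a 1.62-fold higher mean, or 0.93 under median-ratio scaling.

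Neither crystallin shares a word of 50 nt with transcripts of another gene. Both have an annotated partner on the opposite strand, and the strand setting of the authors' counting is not given in the sources used here. An antisense gene overlaps all 3927 nt of Cryaa and averaged 0 TPM in knockout libraries and 0.0105 TPM in wild type. Hspb2, another small heat shock protein gene, overlaps Cryab by 1030 nt and averaged 6.72 ± 0.365 TPM in knockout libraries and 6.75 ± 0.994 TPM in wild type (SD, n = 3 each). Its difference was 0.00 ± 0.11 (SE; limma adjusted p = 0.997 over all genes).

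Other lens genes were mostly near 0 in EMT6. Of 11 beta and gamma crystallin genes, 10 were under 1 TPM on average in both groups, as were 6 of 8 lens fibre genes and lens regulators. The fibre genes Mip and Lim2 did not exceed 0.01 TPM in any library. Among the 5 tested genes of these groups, the transcription factor Maf alone was past the threshold in TPM, at 3.71 ± 0.358 TPM in knockout libraries and 2.64 ± 0.301 TPM in wild type (SD, n = 3 each; difference 0.37, limma adjusted p = 0.0185). Under median-ratio scaling the crystallin gene Crybb3 was past it as well, at 0.56 (limma adjusted p = 0.0354).

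Among the genes around Cryaa more were lower than higher in the EMT6 knockout. Within 1 Mb of it, 15 of 20 tested genes were past the threshold on the lower side and 0 on the higher side, with a median difference of -0.54. Under median-ratio scaling these counts were 11 and 0, with a median of -0.32. Over the whole of chromosome 17, 61.1% of 692 tested genes were lower, against 41.2% of 12795 on the other chromosomes. Under median-ratio scaling 304 were lower and 109 higher on chromosome 17, against 3122 lower and 3471 higher elsewhere. The kinase gene Sik1, named after its value was seen, had the largest difference among these neighbours, -1.55 ± 0.34 (SE). Hspa1a and Hspa1b lie on the same chromosome, and within 1 Mb of Hspa1a 43 of 87 tested genes were lower and 13 higher, or 31 and 24 under median-ratio scaling. Around Hsp90aa1 on chromosome 12, 16 of 25 tested genes within 1 Mb were lower and 0 higher, or 8 and 1 under median-ratio scaling, so a window with few higher genes was not particular to Cryaa. Around Hspa8 on chromosome 9 only 5 genes were tested, of which 3 were lower and 0 higher under either scaling. Their median difference was -0.71, or -0.61 under median-ratio scaling, farther from 0 than around Cryaa. The share lower in TPM was largest around Cryaa, at 75%, against 18.2 to 64% around the other genes followed here. This ranking holds in TPM only, since under median-ratio scaling 11 of 20 were lower around Cryaa and 3 of 5 around Hspa8. The part of the region in the values of Cryaa and Hspa1b was not tested.

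**Figure D3:**
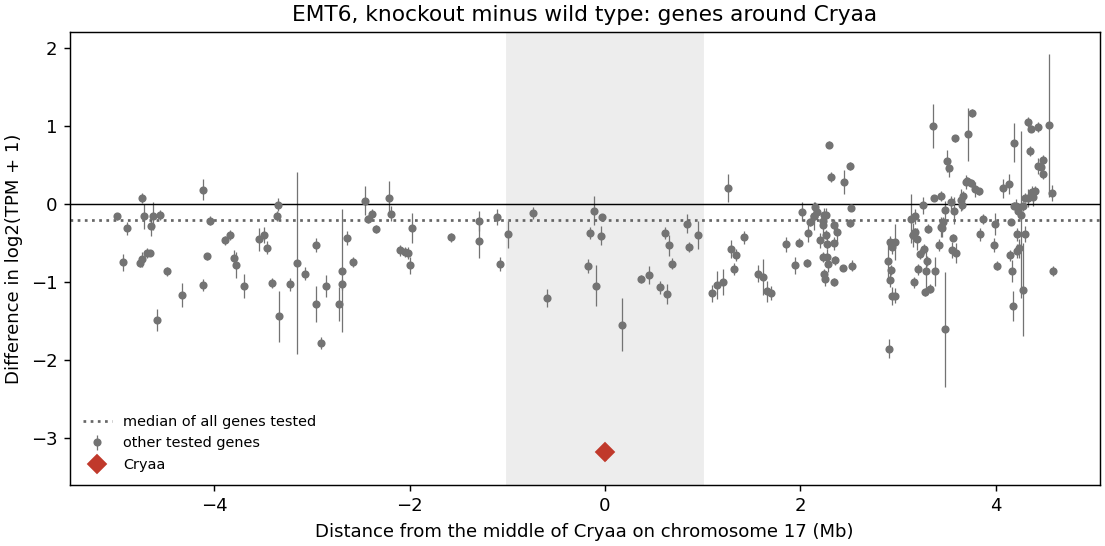
Difference in log2(TPM + 1), EMT6 knockout minus wild type, with standard error, for tested genes within 5 Mb of Cryaa on chromosome 17. The shaded band is the 1 Mb on each side, where 15 of 20 genes were past the threshold on the lower side, and Cryaa lies at -3.18, below all of them.

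The genes with the pattern most like that of Cryaa over the 6 EMT6 libraries were U90926, Cxcl3 and Rcn3. Their root mean square distances from it, after each gene was centred on its own mean of log2(TPM + 1), were 0.0493, 0.0995 and 0.12. This distance mainly reflects the size of the gap between the groups, which was known for Cryaa when it was chosen. Shared regulation of these genes was not tested. U90926 averaged 6.27 ± 0.764 TPM in knockout libraries and 69.1 ± 4.01 TPM in wild type (SD, n = 3 each). It was 11.0-fold lower in the knockout, against 40.6-fold for Cryaa, so a small distance on this scale is not an equal fold. The neutrophil chemokine gene Cxcl3 averaged 0.0151 TPM in knockout libraries and 8.31 TPM in wild type. Rcn3, which encodes a calcium-binding protein of the secretory pathway, was listed at 0 in all knockout libraries, against 7.30, 6.84 and 8.13 TPM in wild type. They lie on chromosomes 5, 5 and 7. No such genes are named for HSPB8 in MDA-MB-231, because no table used here pairs the other human identifiers with symbols.

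BAG3, the scaffold that joins HSPB8 to HSP70, differed little between the groups in both lines. BAG3 (ENSG00000151929) stood at 22.8, 25.4 and 25.8 TPM in MDA-MB-231 knockout libraries and 29.8, 25.5 and 31.7 TPM in wild type, a difference of -0.22 ± 0.11 (SE). The highest knockout library lay just above the lowest wild-type library, so the groups overlapped. Bag3 (ENSMUSG00000030847, chromosome 7, 128523616 to 128546981) stood at 26.3, 25.9 and 26.1 TPM in EMT6 knockout libraries and 26.3, 26.7 and 29.7 TPM in wild type, a difference of -0.07 ± 0.06 (SE) that turned to 0.16 under median-ratio scaling. In TPM its groups were apart by less than 0.1 TPM. The ratio of HSPB8 to BAG3 within a library does not depend on the scaling. It was 0.421 to 0.47 in MDA-MB-231 knockout libraries and 0.00639 to 0.0109 in wild type, and 2.71 to 2.82 in EMT6 knockout libraries and 2.03 to 2.32 in wild type. In both lines the knockout ratios lay above all wild-type ratios.

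HSPA1A, the stress-inducible HSP70, was lower in the knockout of MDA-MB-231, and so was mouse Hspa1b, the near-identical copy of Hspa1a, in EMT6. HSPA1A (ENSG00000204389) stood at 5.19, 5.06 and 6.03 TPM in knockout libraries and 12.9, 12.0 and 14.8 TPM in wild type. The groups did not overlap, and the difference was -1.14 ± 0.12 (SE), a 2.43-fold lower mean. In EMT6, Hspa1a (ENSMUSG00000091971, chromosome 17, 34969190 to 34972156, minus strand) was listed at 0.0212, 0.00855 and 0.0223 TPM in knockout libraries and 0.0404, 0.0472 and 0.0155 TPM in wild type, and did not pass the filter. Hspa1b stood at 40.9, 43.2 and 40.3 TPM in knockout libraries and 97.0, 89.7 and 89.5 TPM in wild type, a difference of -1.13 ± 0.05 (SE; limma adjusted p = 8.38e-05), or -0.90 under median-ratio scaling.

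The mouse copies cannot be told apart safely. Of the words of 50 nt in the Hspa1a transcript, 58.8% also occur in Hspa1b, so reads from either could be given to the other, and the near-zero level of Hspa1a is uncertain. The gene Gm20481 also overlaps Hspa1a by 2225 nt on the opposite strand, and averaged 0.914 TPM in knockout libraries and 2.48 TPM in wild type. The sum of Hspa1a and Hspa1b was 40.9, 43.2 and 40.3 TPM in knockout libraries and 97.0, 89.8 and 89.5 TPM in wild type. The human copy of HSPA1A was not analysed here, so the HSPA1A level carries the same uncertainty.

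HSPA8, the constitutive HSP70, was higher in the EMT6 knockout by an amount that shrank when its main pseudogene was added. Hspa8 (ENSMUSG00000015656, chromosome 9, 40800984 to 40810087) stood at 2541, 2500 and 2294 TPM in knockout libraries and 1868, 2033 and 2138 TPM in wild type, without overlap, a difference of 0.28 ± 0.07 (SE), or 0.52 under median-ratio scaling. Of its words of 50 nt, 34.6% also occur in the processed pseudogene Gm15459, which had 552.1, 604.4 and 505.5 TPM in knockout libraries and 718.5, 667.2 and 658.7 TPM in wild type. Summed with Gm15459, the difference was 0.15, and the lowest knockout library (2800 TPM) stood beside the highest wild-type library (2796 TPM). In MDA-MB-231, HSPA8 (ENSG00000109971) stood at 1331, 1399 and 1567 TPM in knockout libraries and 1545, 1737 and 1444 TPM in wild type. These groups overlapped, with a difference of -0.14 ± 0.10 (SE).

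DNAJB1, the J-domain protein that activates HSP70, lay on opposite sides in the 2 lines. DNAJB1 (ENSG00000132002) stood at 63.7, 65.7 and 74.4 TPM in MDA-MB-231 knockout libraries and 96.8, 89.9 and 102.5 TPM in wild type, a difference of -0.50 ± 0.09 (SE). Dnajb1 (ENSMUSG00000005483, chromosome 8, 83608193 to 83612653) stood at 16.7, 18.0 and 17.8 TPM in EMT6 knockout libraries and 15.8, 15.8 and 15.4 TPM in wild type, a difference of 0.15 ± 0.05 (SE), or 0.38 under median-ratio scaling. In both lines the groups did not overlap. The EMT6 value was no longer past the threshold when any 1 library was left out, with differences of 0.13 to 0.18, and the MDA-MB-231 value was not past it without wild-type replicate 1 or knockout replicate 2.

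HSP90AA1, the inducible form of cytosolic HSP90, was lower in the EMT6 knockout in TPM, by an amount that depended on the scaling. Hsp90aa1 (ENSMUSG00000021270, chromosome 12, 110690605 to 110702728, minus strand) stood at 1920, 2259 and 2005 TPM in EMT6 knockout libraries and 2817, 2561 and 2622 TPM in wild type, a difference of -0.37 ± 0.07 (SE). It was -0.13 under median-ratio scaling and -0.17 with the trend on exon length removed, and past the threshold under neither. Of its words of 50 nt, 41.8% also occur in Gm12346, which averaged under 2 TPM in both groups and left the difference at -0.37 when added. HSP90AA1 (ENSG00000080824) stood at 865.6, 791.4 and 917.2 TPM in MDA-MB-231 knockout libraries and 991.5, 1054 and 922.9 TPM in wild type, a difference of -0.21 ± 0.08 (SE), which was not past the threshold. The ratio of Hspa8 to Hsp90aa1 within a library was 1.11 to 1.32 in EMT6 knockout libraries and 0.663 to 0.815 in wild type. These ratios leave out the pseudogene Gm15459. Summed with it, Hspa8 was at 2586, 2700 and 2796 TPM in EMT6 wild type, overlapping Hsp90aa1. The order of these genes in wild type therefore depends on whether the pseudogene is added. In MDA-MB-231 the ratio was 1.54 to 1.77 in knockout libraries and 1.56 to 1.65 in wild type, which overlapped.

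The wider chaperone network was read in EMT6 from 11 lists that do not contain the 9 genes, with 74 of 95 listed genes tested. limma put 14 higher and 26 lower, a total of 40, beside 56.7% of all tested genes (14.5% higher, 42.3% lower). The median difference was -0.07, against -0.21 for all genes. Under median-ratio scaling 35 were higher and 10 lower, beside 3584 higher and 3426 lower of all 13499 tested genes. With the trend on exon length removed 29 were higher and 12 lower, beside 3124 higher and 3589 lower of all 13487. The balance of directions therefore depends on the processing. Counts per list below were not tested against these shares. Genes named below are the largest differences past the threshold in each list and direction, and adjusted p is limma's over all genes.

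Of 4 genes of heat shock factors and their regulators, 1 was higher and 1 lower, or 2 and 0 under median-ratio scaling. Hsf1, the main inducer of heat shock genes, fell to 29.7 ± 1.15 TPM in knockout libraries, against 37.3 ± 0.734 TPM in wild type (SD, n = 3 each; difference -0.32, limma adjusted p = 0.00248), and was at -0.09 and not past the threshold under median-ratio scaling. Hsbp1, which encodes a small protein that binds HSF1, rose (difference 0.39, or 0.62 under median-ratio scaling, limma adjusted p = 0.000481). Of 7 tested HSP70 and HSP110 genes outside the 9, 5 were lower and 0 higher, or 2 and 2 under median-ratio scaling, led by Hspa1b and by Hspa12a (-0.50, or -0.32 under median-ratio scaling). Of 10 other J-domain genes, 4 were lower and 1 higher, or 2 and 4 under median-ratio scaling. Dnajb4 (-0.71) and Dnajc5 (-0.43) fell, and Dnajb6, which suppresses aggregation, rose (0.20). Under median-ratio scaling these were -0.49, -0.20 and 0.44.

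Of 13 genes of HSP90 and its co-chaperones, 5 were lower and 2 higher, or 2 and 6 under median-ratio scaling. Fkbp5, an HSP90-binding immunophilin, fell to 12.1 ± 1.12 TPM in knockout libraries, against 25.7 ± 1.39 TPM in wild type (SD, n = 3 each; difference -1.03, limma adjusted p = 0.000381). Chordc1, an HSP90 partner that is heat-inducible, fell by 0.77 on the log2 scale, and was at -0.54 under median-ratio scaling. Ptges3 (0.30) and Cdc37 (0.12), both co-chaperones of HSP90, rose, and were at 0.54 and 0.36 under median-ratio scaling. Fkbp5, like Hspa1b and Tcp1, lies on chromosome 17. So do the tested genes Hsp90ab1, Bag6, Stub1 and Pfdn6, at -0.42, -0.23, -0.27 and -0.15 in TPM, all but Pfdn6 past the threshold. Under median-ratio scaling they were at -0.18, 0.01, -0.04 and 0.09, and none was past it. Fkbp5, Hspa1b and Tcp1 stayed past the threshold under that scaling, at -0.80, -0.90 and -0.57.

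Among 6 tested partners of the BAG3 and HSPB8 autophagy pathway, 3 were lower and 1 higher, or 1 and 2 under median-ratio scaling. The autophagy receptor gene Sqstm1 rose to 383.6 ± 13.02 TPM in knockout libraries, against 269.1 ± 12.9 TPM in wild type (SD, n = 3 each; difference 0.51, limma adjusted p = 0.000676). The filamin genes Flnc (-0.59) and Flna (-0.34), whose proteins are clients of this pathway, fell. Under median-ratio scaling these were -0.37 and -0.11, and Flna was not past the threshold. Sqstm1 was at 0.75 under that scaling and past it. Of 6 other BAG and exchange factor genes, 3 were lower and 1 higher, or 1 and 2 under median-ratio scaling, with Bag5 (-0.55) and Bag4 (-0.50) lower and Hspbp1 (0.39) higher. Under median-ratio scaling these were -0.33, -0.29 and 0.63, and Bag4 lost its call.

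Of 14 genes of the TRiC chaperonin and of prefoldin, which fold and deliver actin and tubulin, 3 were higher and 3 lower, or 10 and 1 under median-ratio scaling. Tcp1, which encodes the alpha subunit of TRiC, fell to 192.5 ± 2.48 TPM in knockout libraries, against 337.8 ± 10.5 TPM in wild type (SD, n = 3 each; difference -0.81, limma adjusted p = 8.38e-05), while the TRiC subunit gene Cct3 (0.40) and the prefoldin gene Pfdn2 (0.60) rose. Under median-ratio scaling Tcp1, Cct3 and Pfdn2 were at -0.57, 0.64 and 0.83. Cct6a was at -0.17 in TPM and at 0.07 under median-ratio scaling. Of 7 mitochondrial chaperone genes, 4 were higher and 2 lower, or 5 and 1 under median-ratio scaling. Grpel1 (0.32) and Hspe1 (0.27) rose, and Clpb (-0.79) and Hspd1 (-0.33) fell. Under median-ratio scaling these were 0.55, 0.51, -0.56 and -0.09, and Hspd1 was not past the threshold. Of the small heat shock protein genes outside the 9, Hspb2 and Hspb6 were tested and neither was past the threshold, and 3 were under 1 TPM in both groups.

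**Figure D4:**
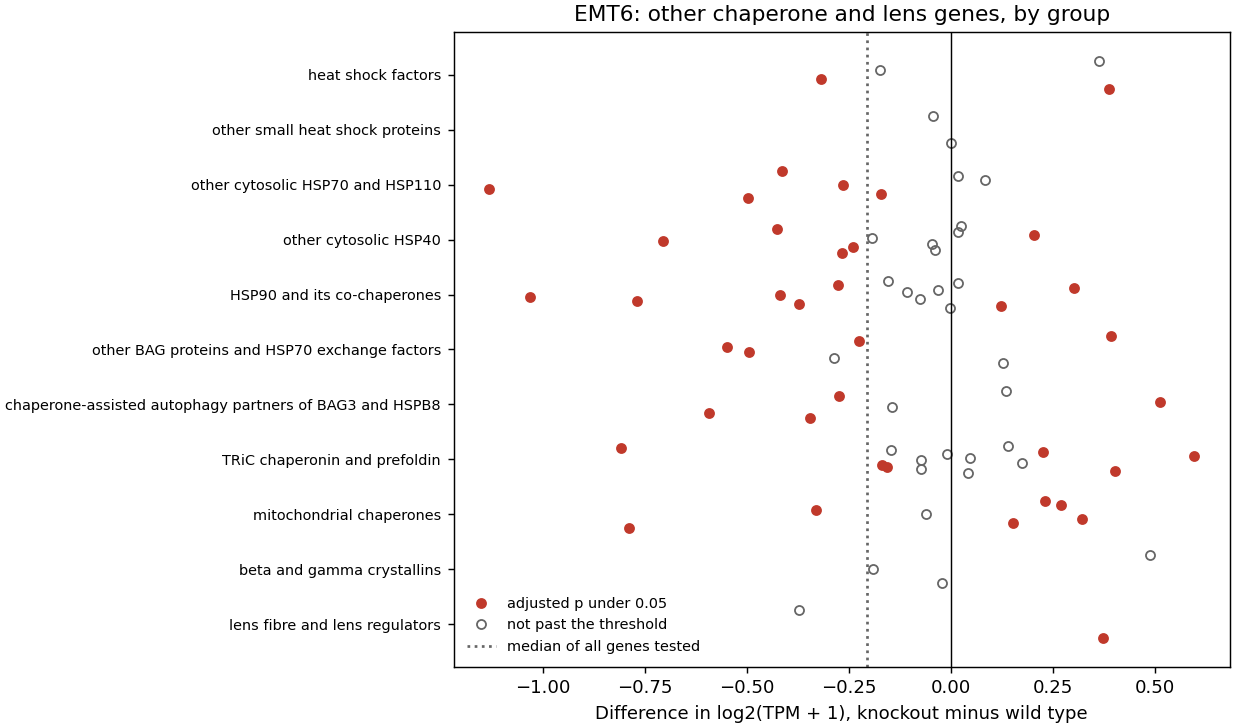
Difference in log2(TPM + 1), EMT6 knockout minus wild type, for the 74 tested genes of 11 lists, 1 point per gene. Filled points are past the threshold (14 higher, 26 lower), open points are not; the dotted line is the median of all tested genes, -0.21.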

How the data were processed

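RNA from EMT6 and MDA-MB-231 cells was sequenced single-end from poly(A) libraries, per the labels and the series description. The authors deposited TPM values per gene, 1 table per line. The submitters' processing notes name CASAVA 1.8.2, TopHat2 2.1.1, featureCounts from Subread 1.6.4 and the builds mm10 and GRCh38.p7, and the strand setting is not given in the sources used here. TPM keeps no read depth, so no counting interval is given. Mouse symbols and positions came from GENCODE M21 (GRCm38, the mm10 build), where 54097 of 54331 identifiers matched, and upstream sequence from RefSeq. The 9 genes and all lists were chosen with earlier results of these data known.

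Each line was fitted alone on log2(TPM + 1) (limma 3.58.1, R 4.3.3, trend of variance on mean allowed), keeping genes at 0.5 TPM or more in 3 or more of the 6 libraries. The threshold was a Benjamini-Hochberg adjusted p under 0.05 over all tested genes, and the fit was checked on simulated data. Standard errors of differences are limma's and SDs are over 3 libraries. Named genes were the 9 genes, the targeted gene, Hsf1, Hspb2, Hspa1b, the 2 largest differences past the threshold per list and direction, and the 3 genes most alike to Cryaa. Knockout columns carry a code in place of the genotype and were assigned to the knockout group of their line by elimination. Alternatives were no trend, median-ratio scaling, no filter, a filter of 1 TPM, a pseudocount of 0.1, a replicate block, removal of the exon length trend (EMT6), each library left out, and, chosen after seeing the data, summing a gene with the gene sharing most of its sequence words.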

Additional observations from a re-analysis of the deposited data

Results flagged for a closer look

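DNAJB1 lay on opposite sides of wild type in the 2 lines. In EMT6 every knockout library was above every wild-type library (difference 0.15 on the log2(TPM + 1) scale, knockout minus wild type), and in MDA-MB-231 every knockout library was below every wild-type library (difference -0.50). Groups without overlap were common, at 66.2% of all tested genes for EMT6, against 40.1% for MDA-MB-231. Mouse Dnajb1 was no longer past the limma threshold when any 1 library was left out, or with the replicate block. Human DNAJB1 was not past it without wild-type replicate 1 or knockout replicate 2. The tables were normalized separately, and the difference between the lines was not tested. Groups of 3 libraries are too small to be examined for single outlying libraries.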

How the results depend on the processing

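The count of all genes past the limma threshold in MDA-MB-231 was 3065, and 1551 to 2530 with 1 library left out. It was 1559 without wild-type replicate 1, 1968 without wild-type replicate 3, 1551 without knockout replicate 2 and 1821 without knockout replicate 3. With the replicate number as a block it was 1564. In EMT6 the count was 7659, and 6248 to 6954 with 1 library left out, or 6651 with the block; for the other chaperone genes it was 40, and 32 to 41, or 36 with the block. The labels do not state whether same-numbered libraries were prepared together. Deviations of same-numbered libraries correlated at 0.0647, -0.0175 and 0.0728 in EMT6 and 0.00168, 0.114 and -0.127 in MDA-MB-231. With 3 libraries per group, these correlations cannot decide whether the libraries were paired. With the block, Hspa8 and Dnajb1 in EMT6 were not past the threshold. Bag3 turned to 0.16 under median-ratio scaling and was past the threshold under neither scaling. No called difference of the 9 genes changed sign under the alternatives run. Other human chaperone genes and human exon lengths were not analysed here. The unknown depth limits what the lowest values can show, Cryaa in the knockout and HSPB8 in wild-type MDA-MB-231 among them.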
